A study of Mus musculus with 8 samples.

Results

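The 54 genes described here encode the proteins that carry a cell through mitosis, from the kinases and cyclins of mitotic entry to the motors of cytokinesis. They were taken by symbol as the members of a list of mitosis, spindle and kinetochore genes, and each symbol matched 1 row among the 41457 genes of the deposited tables. The list was chosen with earlier results of these data known. In dividing cells most of these genes are transcribed in a wave that peaks in G2 phase and mitosis, and many of their proteins are destroyed as the cell leaves mitosis. The epidermis is renewed by divisions in its basal layer, and KCs stop dividing as they move upwards and differentiate. Transcripts of this kind are therefore widely used as a readout of how many cells of a tissue or culture are cycling.

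Poly(A) RNA was sequenced from keratinocytes (KCs), the epithelial cells of the epidermis, which had been isolated from tail skin of adult wildtype C57BL/6 mice (C57BL/6J in the paper) and kept in culture. Of the 8 samples, 4 were cultured for 1 week and 4 for 3 weeks, with the same strain, genotype and source at both times, and the comparison asks how the transcripts of these genes differ between short and prolonged culture. The deposited design speaks of 4 independent experiments and the paper of cell batches shared by the 2 culture times, but neither the labels nor the paper say which sample came from which batch, so the test was unpaired and p-values measure the spread between these samples. Each 1-week sample had 13896807 to 20026084 exon reads, and each 3-week sample 14096649 to 18127283.

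The RNA was that of KCs at both times. The summed level of 6 basal KC markers (Krt5, Krt14, Trp63, Itga6, Itgb4 and Col17a1) was 14091, 12180.5, 13221 and 14439 RPKM at 1 week and 7106, 8278, 7638 and 8203 RPKM at 3 weeks, in the order of the replicate numbers. Most of this difference was Krt5, with a mean of 6170.4 RPKM at 1 week and 2207 RPKM at 3 weeks. Krt5 (-1.32 on the log2 scale, adjusted p = 0.00103, edgeR) and Itga6 (-0.75, adjusted p = 0.0391, edgeR) were lower by the test. Krt14 (-0.23, adjusted p = 0.414, edgeR), Trp63 (-0.69), Itgb4 (0.40) and Col17a1 (0.05) were not. RPKM, used for levels throughout, corrects reads for exon length and sequencing depth. Fibroblast markers (Col1a1, Col1a2, Col3a1, Pdgfra, Dcn and Lum) summed to at most 4.65 RPKM in any sample, leukocyte and Langerhans cell markers to at most 4.10 RPKM, and endothelial markers to at most 0.568 RPKM. Cd207, which marks Langerhans cells, had 0 reads in all 8 samples. Merkel cell markers summed to at most 0.0876 RPKM at 1 week and 0.529 RPKM at 3 weeks, where Krt20, at 0.529, 0.379, 0.505 and 0.283 RPKM, lay above its 1-week values in every sample but had too few reads to be tested.

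As a group, the 54 genes took up 0.181, 0.183, 0.305 and 0.370% of the exon reads in the 1-week samples and 0.0387, 0.0393, 0.0262 and 0.0245% in the 3-week samples. Every 3-week share lay below every 1-week share. Summed over the 54 genes, the level was 594 RPKM at 1 week (SD 209.5, n = 4) against 70.1 RPKM at 3 weeks (SD 17.3, n = 4). In bulk RNA, fewer cells in mitosis and less RNA per cell cannot be told apart.

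All 54 genes passed the filter on low counts, and all 54 were lower at 3 weeks by the quasi-likelihood test of edgeR (adjusted p-value under 0.05), corrected over the 12590 genes tested, of which 17.0% were lower by the same rule. None of the 54 was higher, against 15.7% of all genes tested. Their log2 fold changes, 3 weeks over 1 week, ran from -3.90 in Ccna2 to -1.93 in Smc4, with a median of -3.03, beside a median of 0.03 over all genes tested. A fall of at least 4-fold past the threshold was found in 52 of the 54, and in 3.00% of the genes tested. In each of the 54 the highest RPKM value at 3 weeks was below the lowest at 1 week, a separation that 26.2% of the genes tested also showed. The paper had already reported much stronger expression of cyclins A2, B1 and B2 and of Cdk1 in KCs at 1 week than at 3 weeks. Because the list was chosen with earlier results of these data known, the shares set beside all genes tested are descriptive. They are not a test on an independently chosen list. Only Cenpe, Cenpf and Mki67 lost the threshold when single samples were left out. They had few reads, as had Cenpk and Kif15, which kept it, and the cause was not tested.

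**Figure D1:**
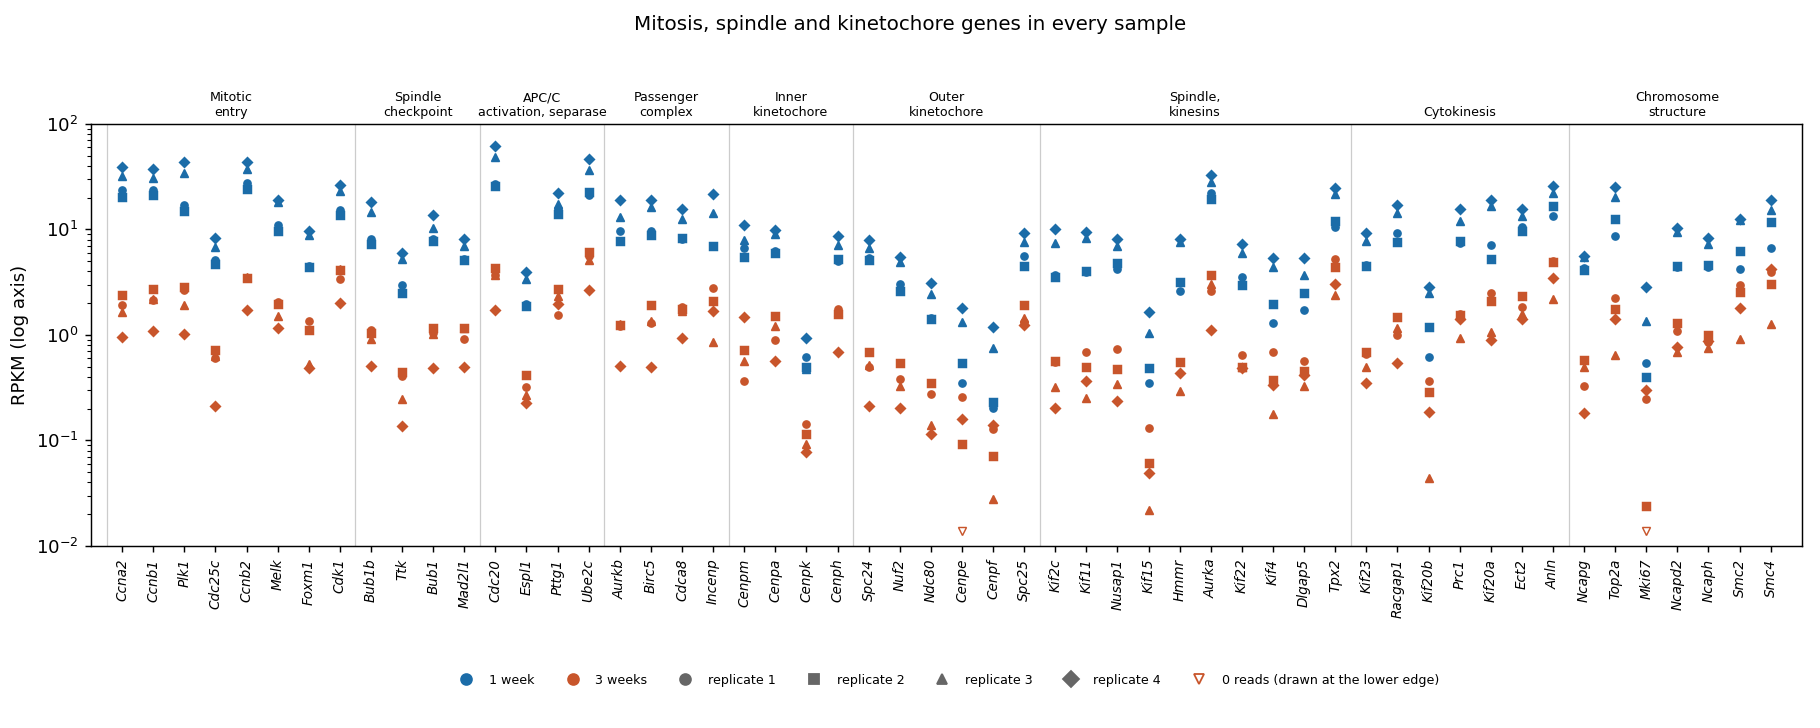
RPKM (log axis) of the 54 genes in each of the 8 samples, grouped by role and, within a role, ordered by log2 fold change, with 1-week samples in blue, 3-week samples in orange and replicates 1 to 4 as circles, squares, triangles and diamonds. In every gene the blue and orange symbols are apart, and Cenpe and Mki67 each had 0 reads in 3 weeks replicate 3 (open triangles at the lower edge).

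The samples of a group were not alike. At 1 week replicate 4 had the highest RPKM of its group in all 54 genes, and replicates 3 and 4 both exceeded replicates 1 and 2 in 53 of them, Cenpk being the exception. The ratio of the highest to the lowest 1-week value had a median of 2.16 over the 54 genes and ran from 1.36 in Ncapg to 7.09 in Mki67. Markers of suprabasal KCs, Krtdap among them, were higher in the same 1-week samples, with summed levels of 9.81, 9.04, 78.2 and 103 RPKM at 1 week and 4.57, 4.86, 6.08 and 14.7 RPKM at 3 weeks, and Krtdap was the most abundant of them at 1 week. At 1 week 6 melanocyte markers were also highest in replicates 3 and 4, with 5.15, 3.54, 16.2 and 21.4 RPKM at 1 week and 1.64, 5.94, 3.34 and 3.95 RPKM at 3 weeks. The part of these cells in the levels of the mitotic genes was not tested. At 3 weeks, replicate 4 was the lowest sample for 34 of the 54 genes and replicate 3 for 18. Over the counts of all genes with enough reads, the chi-square per degree of freedom was 31.8 between 3-week replicates 1 and 2 and 115.2 to 263.6 for every pair with replicate 3 or 4, and between 15.5 and 64.7 for the pairs at 1 week.

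The names of the deposited files carry numbers, 3 of which occur at both times, and the labels do not say what they mean. For the 2 samples with number 46 the summed level was 427 RPKM at 1 week and 82.4 RPKM at 3 weeks, a ratio of 5.18. The ratio was 8.01 for number 49 (692 and 86.4 RPKM) and 17.0 for number 90 (842 and 49.7 RPKM). Over the genes tested, the deviations from the group mean correlated between the 2 samples at -0.227 for number 46, 0.200 for 49 and 0.249 for 90, so they do not show that every number marks a pair.

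Entry into mitosis is driven by CDK1 bound to cyclins A and B, helped by the phosphatase CDC25C and the kinase PLK1, while the transcription factor FOXM1 activates many genes of this phase. With Ccnb2 and the kinase gene Melk these genes, 8 in all, had the highest summed level of any role, 165 RPKM at 1 week (SD 53.5, n = 4) against 15.4 RPKM at 3 weeks (SD 4.69, n = 4), and a median log2 fold change of -3.29. Ccna2 (chromosome 3, 36564865 to 36572150, GRCm38 here and below) had the largest fall of all 54 genes, with every 3-week value at or below 2.37 RPKM and every 1-week value at or above 20.4 RPKM (standard error 0.33, adjusted p = 0.000204, edgeR).

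Ccnb1 (chromosome 13, 100778650 to 100786570), the gene of cyclin B1, was measured at 23.6, 21.1, 30.5 and 37.6 RPKM at 1 week and 2.16, 2.71, 2.18 and 1.08 RPKM at 3 weeks. At both times replicate 4 was at one end of its group, the highest at 1 week and the lowest at 3 weeks. Ccnb1 fell by 3.62 on the log2 scale (standard error 0.32, adjusted p = 0.000232, edgeR). Cdk1 (chromosome 10, 69335146 to 69352938), whose fall was the smallest of the 8, was at 15.4, 13.5, 23.1 and 26.4 RPKM at 1 week and 3.35, 4.14, 4.18 and 2.00 RPKM at 3 weeks, with replicate 4 again highest at 1 week and lowest at 3 weeks. Its log2 fold change was -2.34 (standard error 0.31, adjusted p = 0.000900, edgeR). Foxm1 had 4.46, 4.40, 8.80 and 9.56 RPKM at 1 week and 1.36, 1.11, 0.529 and 0.485 RPKM at 3 weeks, and here replicates 1 and 2 were the higher ones at 3 weeks. It fell by 2.81 on the log2 scale (standard error 0.41, adjusted p = 0.00131, edgeR). The log2 fold change was -3.52 in Plk1, -3.33 in Cdc25c and -2.95 in Melk.

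Promoters of genes of this phase often carry the cell cycle genes homology region (CHR, TTTGAA or TTCGAA), which the DREAM and MuvB complexes bind, and CCAAT boxes. In the RefSeq promoter windows (GRCm38.p6, 250 bases before to 50 bases after the start), 44 of the 54 genes were matched by symbol. A CHR on either strand was present in 33 of the 44 (75.0%), a CCAAT in 32 (72.7%) and both in 28 (63.6%). Over the 27025 genes with windows the shares were 21.7%, 41.1% and 8.61%, and over 96 of the other mitotic genes described below they were 44.8%, 56.25% and 29.2%. The stretches before the start of Cdk1 and Cdc20 are shown. Only genes whose values in every sample are printed in this text, and which had 1 window, were considered. Of these, Cdk1, Cdc20 and Ube2c held both motifs in the 120 bases before the start. Other members, such as Espl1 and Top2a, also held both there. Ube2c was left out by a limit of 30 bases inside the deposited gene, set after these stretches had been seen, since it had 31. The stretches shown are read 5′ to 3′ on the minus strand, with CHR (TTTGAA) and CCAAT (or ATTGG, its reverse) in capitals, at chr10:69352913-69353032 and chr4:118437344-118437463. The last 26 bases for Cdk1 and the last 9 for Cdc20 lie inside the gene as the deposited tables place it.
Cdk1: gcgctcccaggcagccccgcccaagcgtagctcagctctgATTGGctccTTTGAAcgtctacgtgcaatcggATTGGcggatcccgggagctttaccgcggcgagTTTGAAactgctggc
Cdc20: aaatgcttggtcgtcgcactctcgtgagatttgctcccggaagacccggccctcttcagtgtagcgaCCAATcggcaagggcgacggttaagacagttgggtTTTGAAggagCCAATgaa

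A match describes the letters of a window and does not show that a factor binds there. The windows of Ccna2, Cdc25c, Foxm1, Aurkb, Incenp, Spc24, Tpx2, Dlgap5, Kif20a and Smc4 were not matched. 

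The spindle assembly checkpoint holds anaphase until every kinetochore is attached to microtubules. Its 4 genes here, Bub1, Bub1b, Mad2l1 and the kinase gene Ttk (MPS1), had a median log2 fold change of -3.41. Bub1b (chromosome 2, 118598211 to 118641591), which encodes BUBR1, was at 8.18, 7.34, 14.6 and 18.3 RPKM at 1 week and 1.10, 1.04, 0.911 and 0.510 RPKM at 3 weeks. The groups were far apart, with 3 weeks replicate 4 lowest, and the gene fell by 3.59 on the log2 scale (standard error 0.38, adjusted p = 0.000391, edgeR). Mad2l1, the gene of MAD2, fell least of the 4, from 5.26, 5.07, 7.02 and 8.03 RPKM to 0.921, 1.15, 1.16 and 0.495 RPKM. Its log2 fold change was -2.59 (standard error 0.30, adjusted p = 0.000574, edgeR), beside -3.58 in Ttk and -3.23 in Bub1.

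Once the checkpoint is satisfied, CDC20 activates the anaphase-promoting complex (APC/C), the ubiquitin ligase that, with the conjugating enzyme UBE2C, marks securin (Pttg1) and cyclin B for destruction and frees separase (Espl1). Cdc20 (chromosome 4, 118432901 to 118437352) had the highest mean level of the 54 genes at 1 week, 40.9 ± 17.4 RPKM (SD, n = 4). Its values were 27.1, 25.9, 48.8 and 61.7 RPKM at 1 week and 3.71, 4.30, 3.72 and 1.71 RPKM at 3 weeks, with 1 week replicates 3 and 4 well above the others and 3 weeks replicate 4 below the rest. It fell by 3.43 on the log2 scale (standard error 0.39, adjusted p = 0.000496, edgeR). Ube2c (chromosome 2, 164769898 to 164778822) had the highest mean of the 54 at 3 weeks, 4.87 ± 1.55 RPKM, and its samples were at 21.0, 22.4, 36.4 and 46.1 RPKM at 1 week and 5.59, 6.15, 5.10 and 2.64 RPKM at 3 weeks. Ube2c fell by 2.52 on the log2 scale (standard error 0.34, adjusted p = 0.000958, edgeR), and its 3-week values overlapped those of Cdc20. The log2 fold change was -3.02 in Espl1 and -2.85 in Pttg1.

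The chromosomal passenger complex, made of the kinase Aurora B (Aurkb), INCENP, survivin (Birc5) and borealin (Cdca8), corrects faulty attachments and later directs cytokinesis. Aurkb (chromosome 11, 69045647 to 69051664) was at 9.68, 7.73, 13.2 and 18.9 RPKM at 1 week and 1.20, 1.24, 1.28 and 0.508 RPKM at 3 weeks. At 3 weeks 3 samples were nearly equal and replicate 4 was lower, and the fall was by 3.36 on the log2 scale (standard error 0.38, adjusted p = 0.000499, edgeR). Incenp, with 6.91, 7.02, 14.3 and 21.5 RPKM at 1 week and 2.80, 2.10, 0.852 and 1.67 RPKM at 3 weeks, varied more, and its lowest 3-week sample was replicate 3. Its log2 fold change was -2.59 (standard error 0.45, adjusted p = 0.00290, edgeR), beside -3.23 in Birc5 and -2.66 in Cdca8.

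Centromeres are marked by the histone variant CENP-A, on which the inner kinetochore proteins CENP-H, CENP-K and CENP-M assemble. The 4 genes had a median log2 fold change of -2.54, the smallest fall of the 9 roles by this measure. Cenpm was at 6.72, 5.49, 7.84 and 10.9 RPKM at 1 week and 0.365, 0.715, 0.565 and 1.47 RPKM at 3 weeks, and unlike most of the 54 genes its highest 3-week sample was replicate 4. It fell by 3.17 on the log2 scale (standard error 0.41, adjusted p = 0.000764, edgeR). Cenph was at 5.01, 5.22, 7.11 and 8.64 RPKM at 1 week and 1.74, 1.57, 1.64 and 0.687 RPKM at 3 weeks, with 3 weeks replicate 4 lowest, and its log2 fold change was -2.02 (standard error 0.33, adjusted p = 0.00210, edgeR). That of Cenpa was -2.71, and that of Cenpk, whose reads numbered between 6 and 86 per sample, was -2.37.

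The outer kinetochore holds the microtubule ends through the NDC80 complex, built from NDC80, NUF2, SPC24 and SPC25, and the large proteins CENP-E, a kinesin, and CENP-F. Spc24 went from 5.33, 5.17, 6.63 and 7.87 RPKM to 0.5005, 0.686, 0.521 and 0.212 RPKM, and Spc25 from 5.57, 4.48, 7.58 and 9.28 RPKM to 1.31, 1.93, 1.43 and 1.24 RPKM. At 1 week the levels of both overlapped, and at 3 weeks every Spc25 value was above every Spc24 value. The log2 fold change was -3.52 in Spc24 (standard error 0.33, adjusted p = 0.000293, edgeR) and -2.02 in Spc25 (standard error 0.26, adjusted p = 0.000810, edgeR), a difference that was not tested, and -3.28 in Nuf2 and -3.09 in Ndc80.

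Cenpe and Cenpf had few reads for their length. Cenpe had between 58 and 275 reads per 1-week sample and 41, 13, 0 and 20 in the 3-week samples, and Cenpf between 59 and 320 and then 37, 18, 7 and 32. Their log2 fold changes of -2.84 and -2.53 had standard errors of 0.82 and 0.67 (adjusted p = 0.0272 and 0.0181, edgeR). Over the alternatives in edgeR, DESeq2 and limma the adjusted p-value ranged from 0.00187 to 0.0780 for Cenpe, highest without 1 week replicate 4, and from 0.000398 to 0.0747 for Cenpf, highest in limma on log2(RPKM + 1).

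Spindle assembly needs the kinase Aurora A (Aurka) and its activator TPX2, the microtubule binders HMMR, DLGAP5 (HURP) and NUSAP1, and kinesins that slide, cap or depolymerize microtubules or bind chromosomes. These 10 genes summed to 79.0 RPKM at 1 week (SD 29.6, n = 4) against 9.56 RPKM at 3 weeks (SD 2.81, n = 4). Aurka (chromosome 2, 172356190 to 172370535) was at 21.9, 19.2, 27.8 and 32.8 RPKM at 1 week and 2.59, 3.70, 3.03 and 1.10 RPKM at 3 weeks. The 1-week values stayed within a factor of 1.71 of each other, 3 weeks replicate 4 was the lowest sample, and the gene fell by 3.11 on the log2 scale (standard error 0.36, adjusted p = 0.000542, edgeR). Its activator Tpx2 had 10.5, 12.0, 21.6 and 24.8 RPKM at 1 week and 5.23, 4.36, 2.40 and 3.04 RPKM at 3 weeks and the smallest change of the 10, at -2.04 on the log2 scale (standard error 0.33, adjusted p = 0.00211, edgeR).

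Among the motors, Kif2c (MCAK), a kinesin that takes tubulin off microtubule ends, fell most. It was at 3.73, 3.56, 7.44 and 10.1 RPKM at 1 week and 0.553, 0.572, 0.321 and 0.203 RPKM at 3 weeks, with 1 week replicates 3 and 4 above the others, and its log2 fold change was -3.74 (standard error 0.45, adjusted p = 0.000646, edgeR). For the plus-end motors that push spindle poles apart it was -3.67 in Kif11 (Eg5) and -3.56 in Kif15, and for the chromosome-bound kinesins -2.88 in Kif4 and -3.05 in Kif22. Kif15 had the lowest mean of all 54 genes at 3 weeks, 0.0659 ± 0.0466 RPKM. The log2 fold change was -3.57 in Nusap1, -3.39 in Hmmr and -2.74 in Dlgap5.

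**Figure D2:**
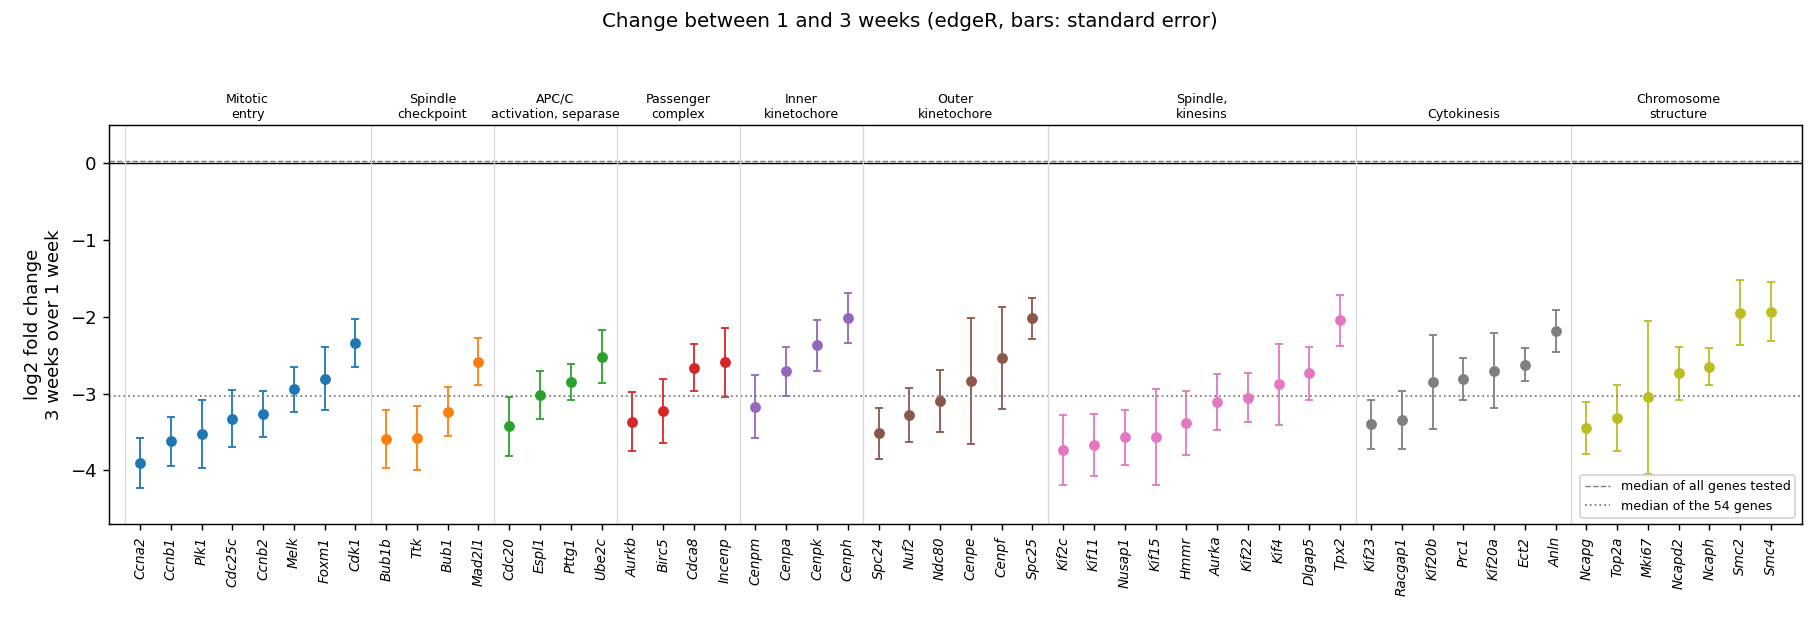
Log2 fold change (3 weeks over 1 week, edgeR) of the 54 genes by role, with standard errors as bars, the median of the 54 genes as a dotted line and the median of all genes tested as a dashed line. All points lie between -3.90 and -1.93, and the widest bars are those of Mki67 and Cenpe.

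Cytokinesis begins at the central spindle, where PRC1 bundles microtubules and KIF23 with RACGAP1 recruits ECT2, which activates the small GTPase RhoA, while the kinesin KIF20A brings the chromosomal passenger complex there and anillin (Anln) ties the contractile ring to the membrane. Kif23 was at 4.55, 4.51, 7.75 and 9.27 RPKM at 1 week and 0.665, 0.685, 0.493 and 0.353 RPKM at 3 weeks. It had no sample near the other group and fell by 3.40 on the log2 scale (standard error 0.32, adjusted p = 0.000294, edgeR). Anln (chromosome 9, 22332012 to 22389188) went from 13.5, 16.5, 22.2 and 25.7 RPKM to 4.98, 4.87, 2.18 and 3.45 RPKM, lowest in 3 weeks replicate 3. Its change, at -2.18 on the log2 scale (standard error 0.28, adjusted p = 0.000717, edgeR), was the smallest of this role, in which the others had -3.34 in Racgap1, -2.85 in Kif20b, -2.81 in Prc1, -2.70 in Kif20a and -2.62 in Ect2.

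Chromosomes are folded for mitosis by condensin, whose SMC2 and SMC4 subunits are shared by condensin I and II, and by topoisomerase II alpha (Top2a), and Ki-67 (Mki67) coats their surface. Within condensin I the shared subunits fell least. Smc4 was at 6.72, 11.6, 15.3 and 18.9 RPKM at 1 week and 3.98, 3.06, 1.26 and 4.17 RPKM at 3 weeks, and Smc2 at 4.25, 6.19, 12.3 and 12.5 RPKM and then 2.99, 2.55, 0.911 and 1.80 RPKM. In both, 1 week replicate 1 was the lowest of its group and came closest to the 3-week samples. Ncapg, a subunit of condensin I alone, was at 4.33, 4.13, 5.41 and 5.61 RPKM at 1 week and 0.327, 0.577, 0.491 and 0.183 RPKM at 3 weeks, with 1-week values close together.

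The log2 fold change was -1.93 in Smc4 (standard error 0.38, adjusted p = 0.00539, edgeR) and -1.95 in Smc2 (standard error 0.42, adjusted p = 0.00787, edgeR), the only falls under 4-fold among the 54. It was -3.44 in Ncapg (standard error 0.34, adjusted p = 0.000339, edgeR), -2.74 in Ncapd2, -2.65 in Ncaph and -3.32 in Top2a. The differences between subunits were not tested. Mki67, the gene of the proliferation marker Ki-67, had among the lowest levels of the 54, with 0.543, 0.401, 1.36 and 2.84 RPKM at 1 week and 0.245, 0.0242, 0 and 0.298 RPKM at 3 weeks, or 104, 83, 196 and 504 reads and then 46, 4, 0 and 44. Its log2 fold change of -3.05 had the largest standard error of the 54 (standard error 1.00, adjusted p = 0.0436, edgeR) and lost the threshold without 1 week replicate 1, 3 or 4 or 3 weeks replicate 1 or 2, and over all alternatives its adjusted p-value ranged from 0.0215 to 0.132 (edgeR, DESeq2 and limma).

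**Figure D3:**
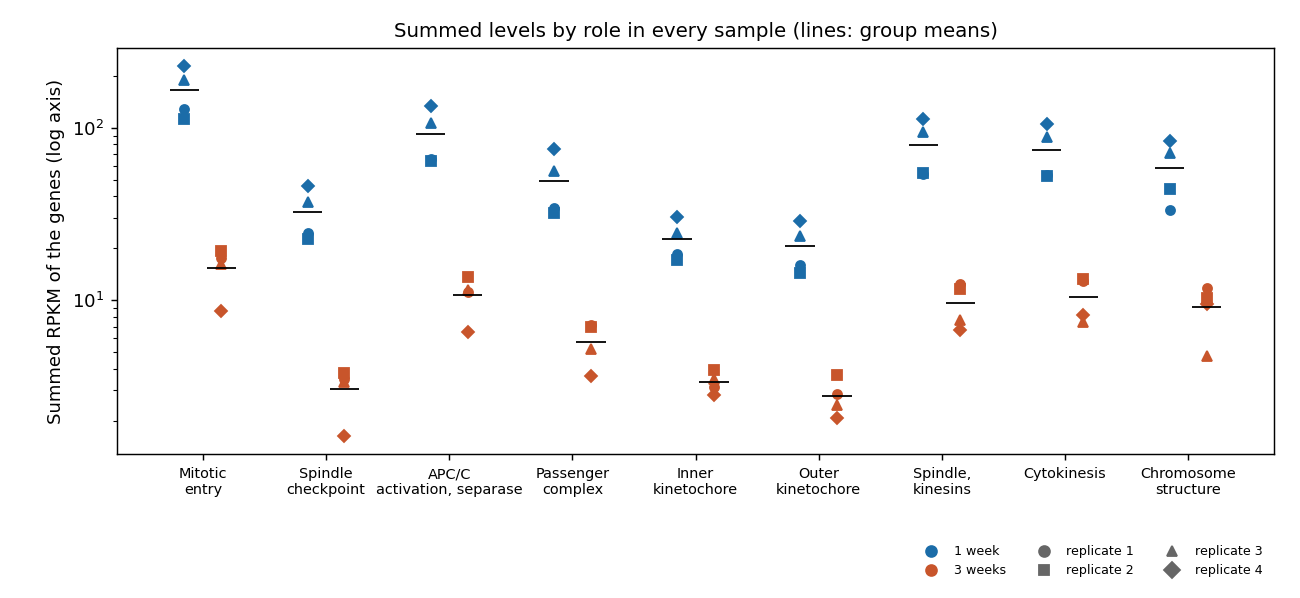
Summed RPKM (log axis) of the genes of each role in the 4 samples at 1 week (blue) and the 4 at 3 weeks (orange), with replicates by symbol and group means as lines. The ratio of the group means ran from 6.41 for chromosome structure to 10.7 for mitotic entry, and replicate 4 was the highest 1-week sample in each role.

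Across the 54 genes, which share the same libraries, the mean RPKM at 1 week was lower for longer genes (Spearman's rho -0.53 with exon length). RPKM divides by this same length, so the relation is partly built into the measure and cannot be read as a trait of the genes. The fall had little relation to the length (0.14) or the level (0.02). The genes lie on 17 chromosomes, 8 of them on chromosome 2. Intron reads, a readout that does not enter the test, were few. They numbered between 176 and 360 over the 54 genes at 1 week and between 82 and 111 at 3 weeks. As a share of all intron reads this was 0.0628, 0.0607, 0.0874 and 0.102% at 1 week and 0.0391, 0.0376, 0.0380 and 0.0239% at 3 weeks, again without overlap between the groups. The mean intron share was 0.0783% at 1 week and 0.0346% at 3 weeks. This relative difference was smaller than that of the exon share, with means of 0.260% and 0.0322%, and the cause was not tested.

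Reads of some genes are less certain. Of the reads on Prc1 27.6% mapped uniquely, and a fit to the unique reads had Prc1 at a log2 fold change of -2.75. Ccna2, Cdc20, Cdca8, Cenpk, Nusap1, Kif4, Kif20a and Ncapg overlap a gene with at least 10% as many reads, such as Elovl1 beside Cdc20, and whether reads were assigned by strand is unknown. With unique reads in place of all exon reads the log2 fold change moved by at most 0.23, in Ncapg. Some of the other mitotic genes named below also overlap a gene with many reads. Oip5, with a mean of 59.75 exon reads, overlaps Nusap1, with 229.25. Cdc23, with a mean of 984.62, overlaps Kif20a, with 439.62.

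The rest of the mitotic machinery was read from 115 further genes in 11 groups, all of which were tested. Of these, 73 were lower and 2 higher at 3 weeks by the same threshold, and 40 passed in neither direction, with a median log2 fold change of -1.16. The share that was lower was 63.5%, beside 17.0% of all genes tested. These groups too were chosen with earlier results of these data known, so the shares are descriptive. All 9 genes grouped here under other cytokinesis were lower, with a median of -3.13, led by Depdc1a (-3.40), Cdca3 (-3.37) and Iqgap3 (-3.28). Of the 14 core subunits of the APC/C, which unlike its activators are present through the cell cycle, 3 were lower, none of them by 2-fold (Anapc1, -0.58, Anapc5, -0.54, and Cdc23, -0.47), and 11 did not pass. These 3 are 21.4% of the 14, near the 17.0% of all genes tested. Over the alternatives in edgeR, DESeq2 and limma the adjusted p-value ranged from 0.00694 to 0.106 for Anapc5 and from 0.000116 to 0.0663 for Cdc23.

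Among 23 other kinetochore and centromere genes 18 were lower, with the largest falls in Knl1 (-3.65), Ska1 (-3.53) and Oip5 (-3.21), and 1 was higher. This was Zwint, the gene of a KNL1-binding kinetochore protein, with 20.8, 20.1, 23.0 and 19.1 RPKM at 1 week and 38.0, 36.8, 36.3 and 24.5 RPKM at 3 weeks. Each 3-week sample was above each 1-week sample, and Zwint rose by 0.88 on the log2 scale (standard error 0.17, adjusted p = 0.00473, edgeR). Of 7 checkpoint partners 4 were lower, led by Kntc1 (-3.44), Trip13 (-2.40) and Zwilch (-2.27), which act with the RZZ complex or on MAD2. The other 3 passed in neither direction. These were Mad1l1 (-0.68, adjusted p = 0.0972, edgeR), Zw10 (-0.44, adjusted p = 0.0646, edgeR) and Bub3 (-0.35, adjusted p = 0.206, edgeR).

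Of 8 other entry regulators 6 were lower, among them Cdc25b (-2.91), Pkmyt1 (-2.08) and Ccnf (-1.98), and 1 was higher. Ensa, the gene of endosulfine alpha, an inhibitor of the phosphatase PP2A-B55, had 13.6, 13.9, 12.3 and 12.2 RPKM at 1 week and 16.1, 16.2, 16.8 and 18.7 RPKM at 3 weeks and rose by 0.55 on the log2 scale (standard error 0.11, adjusted p = 0.00635, edgeR). With the number in the file names as a block, in the 3 that occur at both times, its adjusted p-value was 0.0718 (edgeR), the highest of a range from 1.53e-05 to 0.0718 over the alternatives. The APC/C inhibitor gene Fbxo5 (EMI1) fell by 3.09, whereas Fzr1 (-0.10) and Ube2s (-0.50) did not pass, and 9.09% of the reads on Ube2s mapped to a single place. This share was 29.1% for Bub3, named above, and 11.5% for Haus5 and 30.3% for Sgo2a, named below.

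In cohesin and its protection 6 of 12 genes were lower, led by Sgo1 (-3.78), Sgo2a (-2.74) and Cdca5 (-2.25), which protect or establish cohesion in dividing cells. All 3 condensin II subunits were lower, unequally, with Ncapg2 at -3.25, Ncapd3 at -1.47 and Ncaph2 at -0.79. Of 17 further spindle genes 12 were lower (Nek2, -3.50, Aspm, -3.43, and Kif14, -3.32), and of 8 augmin subunits 6 were (Haus5, -2.05, Haus4, -1.49, and Haus1, -1.38). In the MuvB core and its partners, regulators of this gene wave, 5 of 11 were lower, among them Mybl2 (-3.35), Rbl1 (-1.98) and Lin9 (-0.97), and 6 did not pass.

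**Figure D4:**
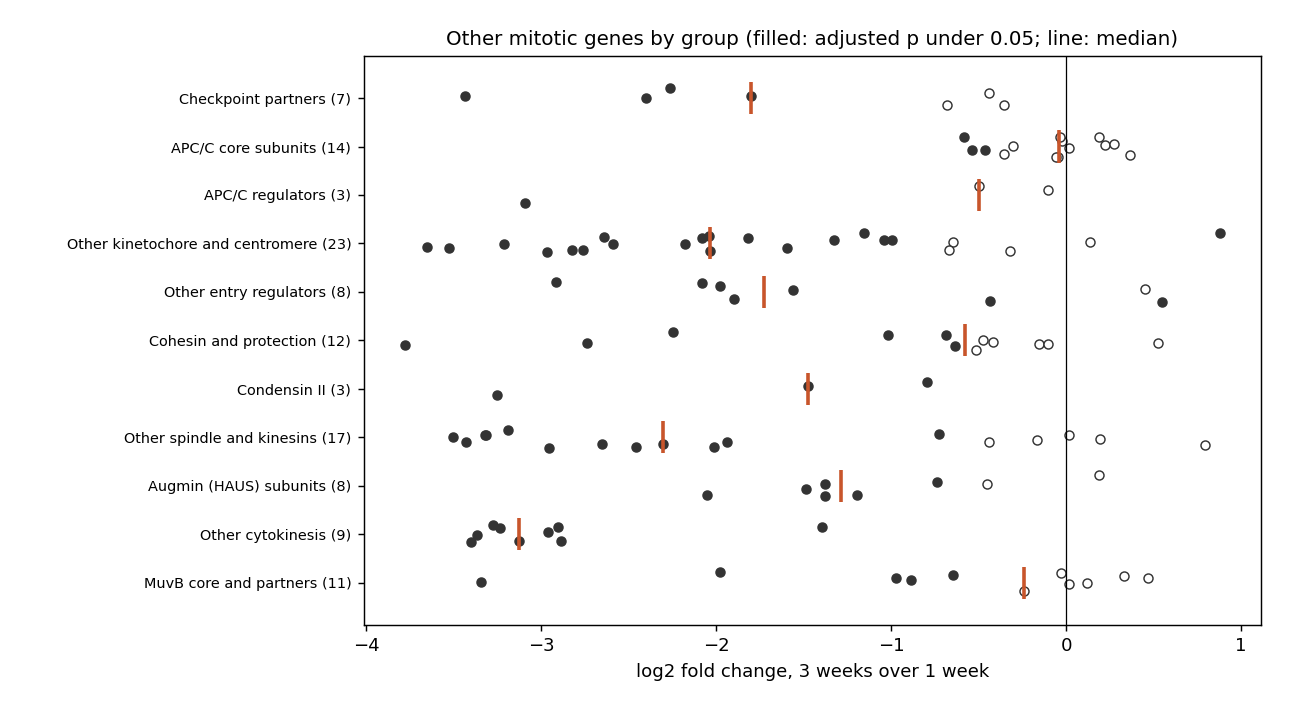
Log2 fold change (3 weeks over 1 week, edgeR) of the 115 other mitotic genes in 11 groups, with the number of genes in parentheses, filled points for an adjusted p-value under 0.05 and an orange line at each median. APC/C core subunits lie around 0 while the genes grouped under other cytokinesis lie around -3.13, and the filled points to the right of 0 are Zwint and Ensa.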

How the data were processed

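Poly(A) RNA of 4 KC samples from each culture time, 1 week and 3 weeks, was sequenced, and the authors aligned the trimmed reads to GRCm38 in the CLC Genomics Workbench. The deposited tables hold raw counts of reads per gene and RPKM values, which the authors obtained by dividing exon reads by exon length and mapped reads. RPKM values were deposited with decimal commas and read as numbers.

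The deposited counts on exons went into edgeR 4.0.16 under R 4.3.3 (filterByExpr, TMM, glmQLFit and glmQLFTest, without pairing), with Benjamini-Hochberg adjustment over all genes tested and a threshold of 0.05. Standard errors were derived from the F statistics. The procedure was tested on simulated data. Python 3.11.15 and matplotlib 3.10.9 were used for tables and figures, and scipy 1.17.1 for rank correlations.

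Members and gene lists were chosen with earlier results of these data known. Values in every sample are given, in each role, for the members with the largest and the smallest change, and for Cdk1, Ccnb1, Aurka, Mki67 and Foxm1, except that Ccna2 is given by its bounds. Of each group of other mitotic genes, up to 3 with the largest change and any that rose are named. Bub3, Mad1l1, Zw10, Smc2, Arpp19 and Anapc16, and the extra values of single members, were chosen after their values were seen. Promoter windows were those of RefSeq (GRCm38.p6), 250 bases before to 50 bases after the start, and 10 of the 54 members had none matched. The rule for the 2 printed stretches took members whose values in every sample are printed, with 1 window and both motifs in the 120 bases before the start. It also asked for at most 30 of these bases inside the deposited gene. This rule was set with the data at hand, and its limit of 30 bases, which left out Ube2c alone, after the stretches had been seen. The strandedness of the libraries and the annotation release are not given in the sources used here. Genes under the edgeR filter were left out of the test.

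Alternatives were DESeq2 1.42.0, upper-quartile normalization, no filter, a minimum of 10 counts in each sample, unique exon reads or every read on a gene in place of exon reads, limma 3.58.1 on log2(RPKM + 0.1) or log2(RPKM + 1), the replicate number or the number in the file names as a block, and fits to 7 of the 8 samples.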

Additional observations from a re-analysis of the deposited data

Results flagged for a closer look

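Of 184 groups of 4 samples examined for a value far from the other 3 (the named genes and the totals of the 54 genes, at each time), 9 held one, and chance flags about 1 in 20 groups. At 3 weeks most of these were low values of replicate 4. Ccnb2 was at 1.73 RPKM there against 3.46 to 3.54 RPKM in the other 3 samples, Aurkb at 0.508 against 1.20 to 1.28 RPKM, and Cenph at 0.687 against 1.57 to 1.74 RPKM. Haus4 was at 0.744 RPKM in that sample against 2.05 to 2.17 RPKM, and the share of intron reads on the 54 genes was 0.0239% against 0.0376 to 0.0391%. Zwint, which was higher at 3 weeks, was also lowest there among the 3-week samples, at 24.5 RPKM against 36.3 to 38.0 RPKM.

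The remaining values lay in other samples. Kif22 was at 0.646 RPKM in 3 weeks replicate 1 against 0.486 to 0.497 RPKM, Anapc1 at 5.98 RPKM in 3 weeks replicate 3 against 7.27 to 7.43 RPKM, and Ube2s at 37.7 RPKM in 1 week replicate 3 against 33.1 to 33.9 RPKM.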

How the results depend on the processing

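The 54 genes had negative log2 fold changes in every alternative that tested them. The number lower with an adjusted p-value under 0.05 was 54 with DESeq2, upper-quartile normalization, no filter, unique exon reads, every read on a gene, the block of file-name numbers and limma on log2(RPKM + 0.1), and 53 in limma on log2(RPKM + 1), where Cenpf did not pass. With at least 10 counts in every sample 46 of the 54 were tested and all 46 were lower. Leaving out single samples gave 51 to 54, and the genes lost were among Cenpe, Cenpf and Mki67. The median log2 fold change of -3.03 became -2.16 in limma on log2(RPKM + 1), where the added 1 compresses low values, and -3.20 to -2.80 without single samples.

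The replicate numbers do not pair the samples throughout. Samples of the same number correlated, after subtraction of group means, at -0.227, -0.146, -0.146 and 0.249 for replicates 1 to 4, and only replicates 1 and 4 also have the same number in their file names at both times, while replicates 2 and 3 share only a number. With the replicate block 53 of the 54 genes were lower, Cenpe did not pass, the median was -2.96, and 67 of the other mitotic genes were lower in place of 73.

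Among the other mitotic genes, 2 to 4 were higher when single samples were left out (4 without 3 weeks replicate 4, where Arpp19 and Anapc16 joined), and 1 with the block of file-name numbers, which lost Ensa. Of all genes tested, 1981 were higher. This became 1309 with the replicate block, 1316 with the block of file-name numbers, 1292 in limma on log2(RPKM + 0.1) and 1252 on log2(RPKM + 1). The cause was not tested. On these RPKM scales 29.9 and 28.7% of the calls were higher in place of 48.0%, and the median of all genes was -0.16 and -0.10 in place of 0.03. Without 3 weeks replicate 3 or 4, 4861 and 4680 genes passed in either direction in place of 4127, and without any of the other 6 samples 3015 to 3438 did. Cdc25c, Cenpk, Spc24, Cenpe, Cenpf, Kif15, Kif20b and Mki67 had under 10 reads in at least 1 sample, so the minimum of 10 counts left them out. Cdc25c, Cenpk, Spc24, Kif15 and Kif20b passed in every alternative that tested them.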
